A study of Homo sapiens with 6 samples.

Results

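The genes described here are the cyclins, the cyclin-dependent kinases (CDKs) and the CDK inhibitors, chosen by name: every gene of the deposited table whose symbol is that of a cyclin (CCN and a letter), a numbered CDK, or an inhibitor of the CDKN1, CDKN2 or CDKN3 names. The rule took 55 of the 17170 genes in the table. No measured value entered the choice, although earlier results of these data were known when it was made. Of the 56 protein-coding genes whose RefSeq symbol fits the rule, CCNP was not analysed here.

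RNA-seq of polyadenylated RNA was made from NCI-H69, an established human line of small cell lung cancer whose cells float in culture. Per the labels, 3 control samples were stable cells made with CRISPR/Cas9 and a non-targeting guide RNA, and 3 samples were stable cells in which CRISPR/Cas9 had been aimed at the SCRMP reading frame of MIR7-3HG, all in 1 batch. The labels do not say whether the cells of a group were 1 clone or a pool. The control columns of the table carry the names that the labels state, whereas 0 columns carry the names stated for the knockout samples, so the knockout was not compared and every value below is from the 3 control libraries. The SD is over these 3 libraries (n = 3 throughout), and where they came from separate cultures is not stated beyond the label of biological replicates.

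The control libraries held 20941185, 22309228 and 22477571 estimated reads. Defining markers of the labelled cell type were mostly low. Of 7 neuroendocrine markers 1 was detected, NCAM1, with 28.4, 27.3 and 21.6 TPM. The others were below 1 TPM in every library, although 0 of the 7 were at exactly 0 in all libraries. Their summed level of 23.4 to 30.7 TPM, NCAM1 included, was thus mostly that of NCAM1. The 4 mesenchymal or fibroblast markers were all detected, with a summed level of 6095 to 6148 TPM. This sum was mostly that of VIM (4542 TPM ± 87.8), and the lowest of the 4 was TWIST1 (321 TPM ± 4.86). Of 2 leukocyte markers 1 was detected (summed level 6.45 to 8.97 TPM), and 0 of 2 endothelial markers were (0.510 to 0.690 TPM). The levels below are therefore those of the libraries labelled NCI-H69 control, and what part these marker levels have in any of them was not tested.

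Cyclins are the regulatory subunits that switch CDKs on. D-type cyclins with CDK4 or CDK6, and E-type cyclins with CDK2, drive entry into DNA synthesis by phosphorylating the RB protein, which releases E2F factors. A- and B-type cyclins with CDK2 and CDK1 carry the cell through DNA synthesis and mitosis. Another branch of the family, CDK7, CDK8, CDK9, CDK12, CDK13 and their cyclins, acts on RNA polymerase II. Within it, CDK7 is also the kinase that activates other CDKs, among them those of the cell cycle. INK4 proteins bind CDK4 and CDK6, and CIP/KIP proteins bind whole cyclin-CDK complexes. Small cell lung cancer is known for loss of RB function, and RB-negative tumours often carry high levels of the INK4 protein encoded by CDKN2A.

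Several promoters of the mitotic members show the sequence elements for which cell cycle genes are known, and these are printed because these elements are known for transcripts that rise before mitosis, whose levels are described further on. The elements searched were the CCAAT box (CCAAT, or ATTGG on the other strand), bound by NF-Y, and the cell cycle genes homology region or CHR (TTTGAA, or TTCAAA on the other strand), bound by the MuvB core. Matches are in capitals, the rest of each run is in lower case, and all runs are 5′ to 3′ on the gene's strand from RefSeq promoter windows (GRCh38.p14), upstream of an annotated transcript start. The runs do not show every match. Within the 250 bases before its start, CCNB2 held 4 CCAAT boxes and CDKN3 held 2. CDK1 held 2 before the start used for its runs. The window of another CDK1 start held 1 CCAAT box and 1 CHR, both outside the printed runs.
CCNB1, chr5:69167055-69167084, plus strand: ggcagccgCCAATgggaagggagtgagtgc
CCNB1, chr5:69167087-69167116, plus strand: cgaacaggCCAATaaggagggagcagtgcg
CCNB2, chr15:59105021-59105077, plus strand: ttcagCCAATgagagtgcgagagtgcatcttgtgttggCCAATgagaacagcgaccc
CCNB2, chr15:59105101-59105130, plus strand: cgcaagcgacgcggtaTTTGAAtcctggaa
CCNA2, chr4:121823934-121824013, minus strand: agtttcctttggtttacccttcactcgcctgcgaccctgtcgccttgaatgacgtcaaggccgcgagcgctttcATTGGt
CDK1, chr10:60778398-60778427, plus strand: tgATTGGctgcTTTGAAagtctacgggcta
CDK1, chr10:60778448-60778477, plus strand: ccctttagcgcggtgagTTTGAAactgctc
CDKN3, chr14:54396827-54396954, plus strand: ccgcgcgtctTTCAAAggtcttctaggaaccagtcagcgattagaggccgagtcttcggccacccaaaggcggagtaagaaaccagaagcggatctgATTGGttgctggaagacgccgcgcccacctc

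CCNB1 had its CCAAT boxes 87 and 55 bases before the transcript start, and CCNB2 had a CHR 29 bases before it. One of the annotated CDK1 starts had a CHR 13 bases before it. A promoter window was given for 50 members, all but CCND1, CCND2, CCNE2, CDK2 and CDKN1C. In the 250 bases before an annotated start, 22 of the 50 members (44.0%) held a CCAAT box, against 40.8% of 13708 genes of the table with a window. The share with 2 or more CCAAT boxes in a window was 22% (11 members), against 14.3% of all genes. A CHR was held by 6 members (12%), against 13.4% of all genes. CCAAT box and CHR stood in the same window in those 6 members, CCNB2, CCNC, CCNF, CDK1, CDK19 and CDKN3, a share of 12% against 5.20% of all genes. The median level was 74.4 TPM for these 6 and 20.5 TPM for the other 44 members. Levels of the 6 were wide apart, from 3.62 TPM (CDK19) and 4.12 TPM (CCNF) to 127 TPM (CDKN3). Over all genes the median was 5.17 TPM with both elements and 8.23 TPM without. CCNB1 and CCNA2 showed no exact CHR in this window. These are matches of letters, not measured sites.

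Most of the family was expressed in the control libraries. A gene was called detected at 1 TPM (a level per transcript length, scaled to the same total in each library) or more in all 3 libraries, which 50 of the 55 members were, against 66.5% of all genes. The mean was 10 TPM or more for 39 members (70.9%; 44.1% of all genes) and 100 TPM or more for 9 (16.4%; 8.25% of all genes). The 9 were CCNI, CDKN2A, CDK4, CCNH, CCNB1, CDKN1B, CDKN3, CDK1 and CCNG1. The median member had 22.3 TPM and the median over all genes was 6.87 TPM. In RNA from many cells, a low level from fewer cells that express a gene and from less RNA per cell cannot be told apart, which matters for genes that are on in 1 phase of the cycle only.

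**Figure D1:**
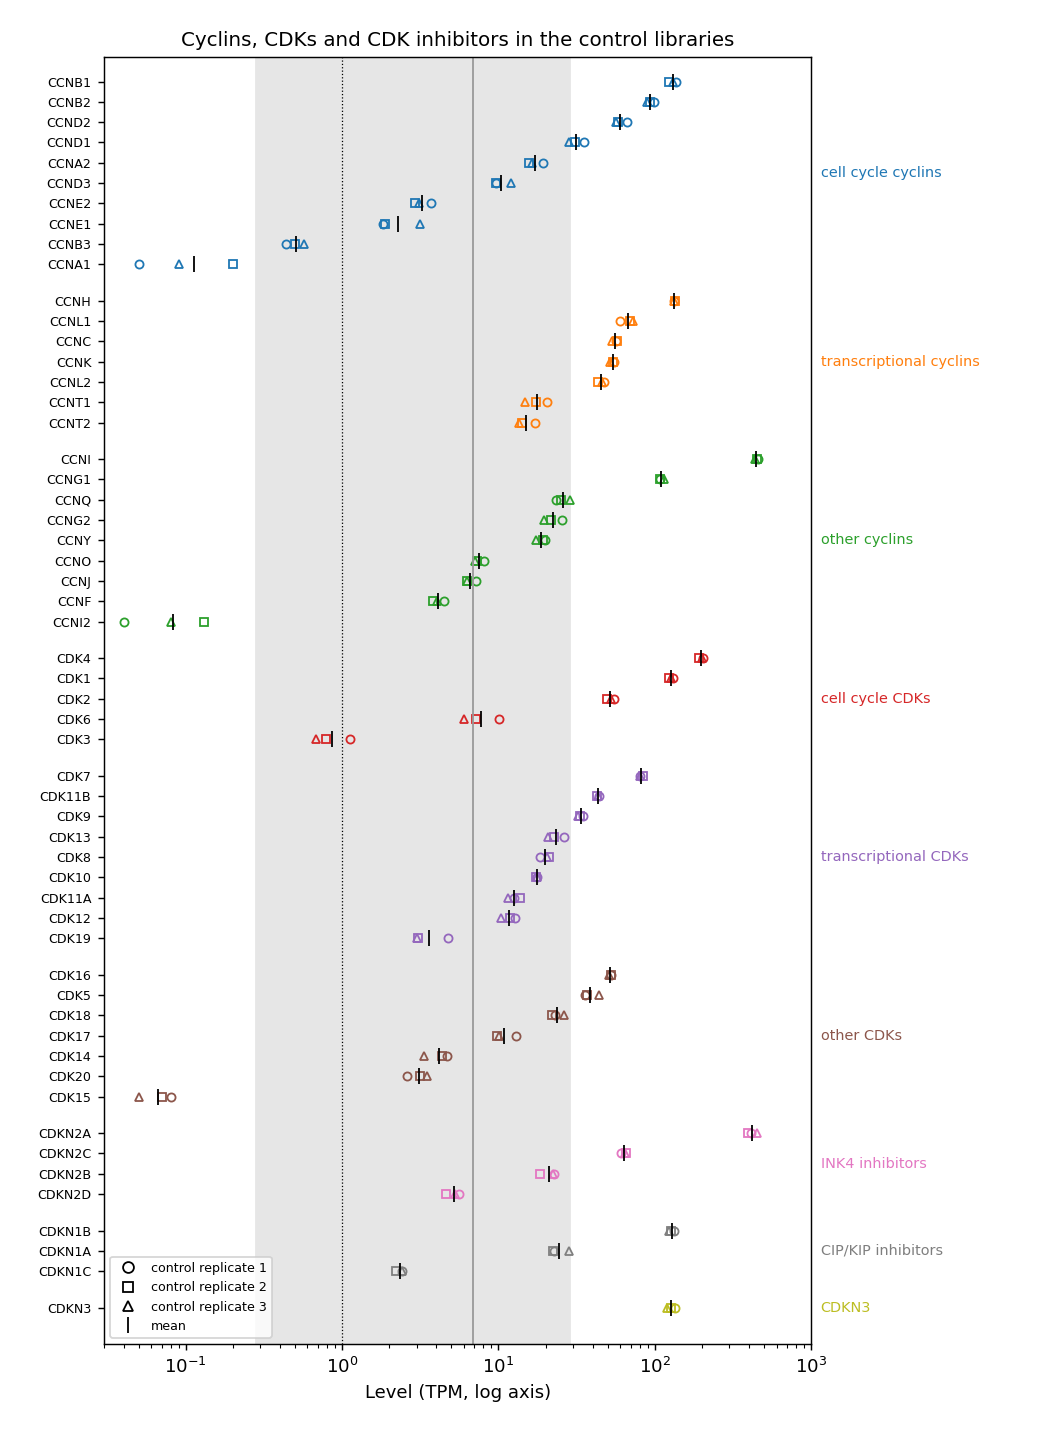
Level of each of the 55 members in TPM (log axis) in the 3 control libraries, grouped by class. Symbols are libraries and ticks their mean. The grey band spans the middle 50% of all genes, the grey line their median of 6.87 TPM, and the dotted line marks 1 TPM. By mean, CCNI (446 TPM) was highest and CDK15 (0.0667 TPM) lowest, with ranges that overlap those of CDKN2A and CCNI2.

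D-type cyclins, which carry growth signals to CDK4 and CDK6, were led by CCND2. CCND2 (chromosome 12, 4273762 to 4305353) had 66.0, 57.8 and 56.5 TPM in control replicates 1, 2 and 3. CCND1 (chromosome 11, 69641156 to 69654474) had 35.2, 30.9 and 28.1 TPM. CCND3 had 9.61, 9.58 and 12.03 TPM. The 3 ranges did not overlap. Of the summed D-type level of 102 TPM ± 7.82, CCND2 gave 58.9% ± 0.554, CCND1 30.8% ± 1.49 and CCND3 10.3% ± 1.95. CCND1 and CCND2 were both highest in replicate 1, whereas CCND3 was highest in replicate 3.

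E-type cyclins were the lowest of the main cell cycle cyclins. CCNE1 had 1.82, 1.88 and 3.14 TPM, from 41.0 to 74.0 estimated reads. CCNE2 had 3.68, 2.91 and 3.12 TPM. Their ranges overlapped, so their order is not fixed by these libraries, and CCNE2 exceeded CCNE1 in replicates 1 and 2 only. CCNA2, the cyclin that follows them on CDK2, had 19.2, 15.7 and 16.3 TPM, which was 8.03-fold ± 2.70 above CCNE1 and 5.28-fold ± 0.0914 above CCNE2 within a library.

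B-type cyclins, the mitotic partners of CDK1, were the highest cell cycle cyclins. CCNB1 (chromosome 5, 69167150 to 69178245) had 136, 124 and 130 TPM. CCNB2 had 98.3, 92.7 and 88.5 TPM, and the CCNB1 level was 1.40-fold ± 0.0650 above it within a library. The germline-associated members were near the floor. CCNA1 had 0.050, 0.200 and 0.090 TPM, from 1 to 4 reads, and CCNB3 had 0.503 TPM ± 0.0651. The B-type and A-type genes together had 241 TPM ± 11.6, of which CCNB1 and CCNB2 gave 54.0% ± 1.05 and 38.7% ± 1.07 and CCNA2 7.07% ± 0.440.

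Among the cell cycle kinases, CDK4 was highest. CDK4 (chromosome 12, 57747727 to 57752310) had 202, 191 and 201 TPM. CDK6, which shares the D-type cyclins with it, had 10.1, 7.20 and 6.02 TPM, so that CDK4 was 26.7-fold ± 6.61 above it and gave 96.2% ± 0.916 of their sum. In RefSeq the span of CDK4 overlaps that of another protein-coding gene, TSPAN31, and so do those of CCNA2 (EXOSC9), CCNE2 (INTS8 and NDUFAF6), CCNG1 (NUDCD2), CCNH (RASA1), CCNI2 (SEPTIN8), CCNK (SETD3 and CCDC85C), CDK7 (CCDC125) and CDK19 (AMD1). The sources used here do not say whether the authors counted by strand, so reads of such neighbours may be mixed. CDK1, the mitotic kinase, had 132, 122.7 and 126 TPM. CDK2 had 54.5, 49.1 and 52.3 TPM. Both were lowest in replicate 2, and the CDK1 level was 2.44-fold ± 0.0492 that of CDK2. CDK3, whose locus also gives a readthrough transcript with TEN1, had 0.867 TPM ± 0.235 and reached 1 TPM in replicate 1 only. CCNB1 and CDK1 messages were nearly equal, with a ratio of 1.03 ± 0.0123 and overlapping ranges.

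The INK4 class was dominated by CDKN2A. CDKN2A (gene number 1029, chromosome 9, 21967752 to 21995324) had 412, 397 and 452 TPM, and ranked 288 among the 17170 genes. It gave 82.3% ± 0.713 of the summed INK4 level of 510 TPM ± 29.8. Its neighbour CDKN2B, 7578 bp away, had 22.6, 18.5 and 22.2 TPM, and the CDKN2A level was 20-fold ± 1.66 above it. CDKN2C, an INK4 gene on chromosome 1, had 60.8, 65.8 and 64.2 TPM, and CDKN2D 5.61, 4.61 and 5.28 TPM. No ranges overlapped within the class. CDKN2A messages exceeded those of CDK4, the kinase that the INK4 product binds, by 2.12-fold ± 0.112.

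A single CDKN2A value covers 2 kinds of transcript. The gene has 2 annotated start regions, of which the more upstream gives the ARF message, which is read in another frame, and the other the INK4 message. The table gives 1 level for the gene, so the share of each is not known here. The bases before the annotated starts are printed to show where the starts lie, and neither window of 250 bases held a CCAAT box or a CHR.
CDKN2A, INK4 start, chr9:21974858-21974887, minus strand: ccgcgtgcgctcggcggctgcggagagggg
CDKN2A, ARF start, chr9:21995325-21995384, minus strand: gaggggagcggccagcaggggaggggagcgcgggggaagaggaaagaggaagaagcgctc
Antisense genes overlap the locus (CDKN2A-AS1 and CDKN2B-AS1), and reads from them cannot be told apart if the counting ignored the strand.

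Among CIP/KIP inhibitors the order was CDKN1B, CDKN1A, CDKN1C, with no overlap of ranges. CDKN1B, which encodes p27, had 133, 127 and 122.9 TPM and gave 82.7% ± 2.31 of the class sum. CDKN1A, which encodes p21, had 22.6, 22.3 and 28.2 TPM. CDKN1C, an imprinted gene that encodes p57, had 2.42, 2.22 and 2.42 TPM. CDKN1B messages were 2.47-fold ± 0.124 above those of CDK2. CDKN3, a phosphatase that acts on CDKs and is no member of either inhibitor class, had 135, 128 and 119 TPM, close to CDK1 and CCNB1.

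The transcriptional branch was expressed throughout, with 7 of 7 cyclins and 9 of 9 kinases detected, against 66.5% of all genes. CCNH and CDK7, which with MNAT1 form the CDK-activating kinase of transcription factor TFIIH, were the highest of their classes. CCNH had 132, 134 and 132 TPM, and CDK7 had 81.0, 84.4 and 79.9 TPM. The CCNH level was 1.62-fold ± 0.0369 that of CDK7 and 1.5-fold ± 0.0169 that of MNAT1. Their SDs on the log2 scale were 0.03 and 0.02.

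In P-TEFb, the kinase that releases paused polymerase, the kinase message exceeded each cyclin message. CDK9 had 34.9, 33.4 and 32.3 TPM, whereas CCNT1 had 20.4, 17.5 and 14.9 TPM. CCNT2 had 15.0 TPM ± 1.89, and the CCNT1 and CCNT2 ranges overlapped. For the Mediator kinase and for CDK12 and CDK13 the cyclin message stood above that of the kinase. CCNC, the cyclin of the Mediator kinase module, had 55.6 TPM ± 2.35, against 19.9 TPM ± 1.37 for CDK8 and 3.62 TPM ± 1.01 for its paralog CDK19. CCNK had 53.6 TPM ± 1.76, against 23.3 TPM ± 2.90 for CDK13 and 11.7 TPM ± 1.21 for CDK12, which phosphorylate elongating polymerase. The splicing-linked cyclins CCNL1 and CCNL2 had 67.6 TPM ± 6.52 and 45.4 TPM ± 2.15, and CDK10 had 17.5 TPM ± 0.0231.

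CDK11B and CDK11A, near-identical copies on chromosome 1 separated by 43374 bp, were given 43.2 TPM ± 0.713 and 12.6 TPM ± 1.19. Reads of either copy can be assigned to the other, so this split is uncertain.

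**Figure D2:**
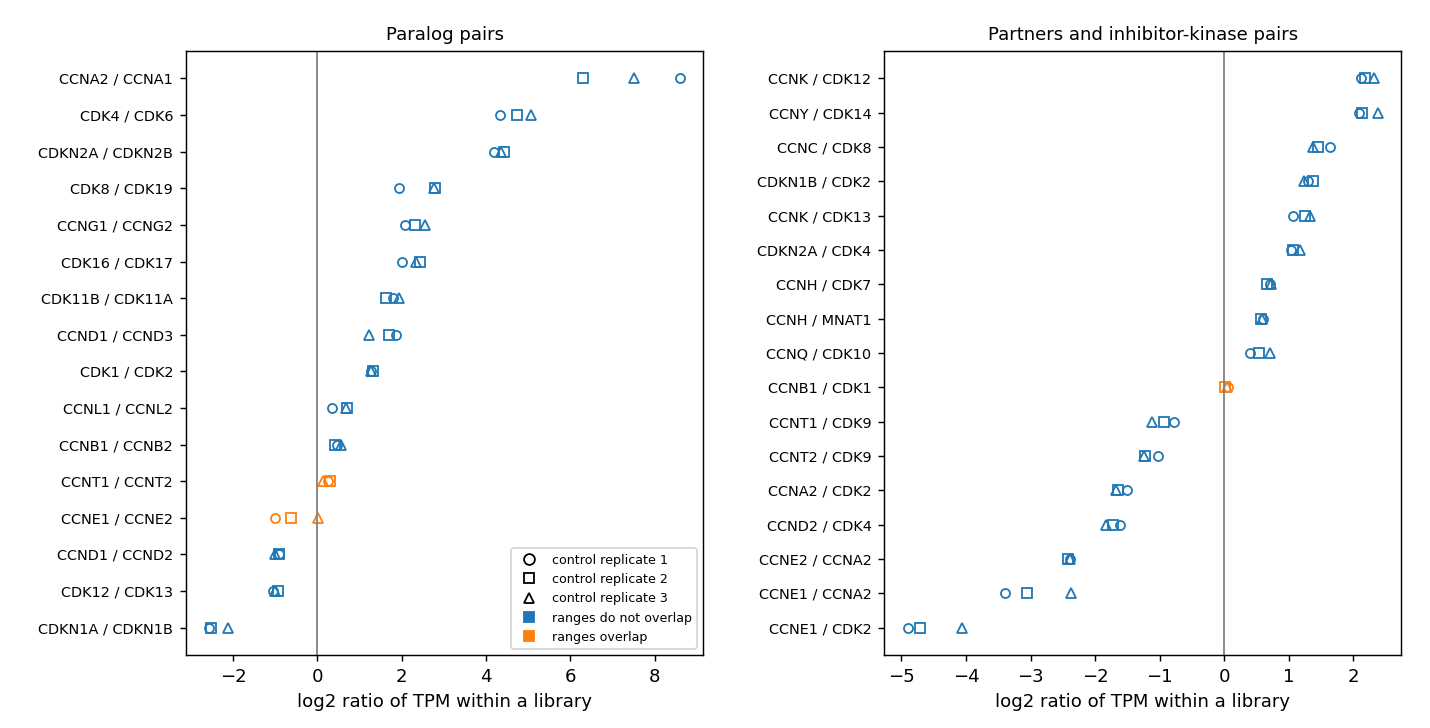
Log2 ratio of TPM within each control library for 16 paralog pairs (left) and 17 pairs of partners, successive cyclins, or inhibitors and kinases (right). Each symbol is a library, and colour shows whether the ranges of both genes overlap. Overlap was seen for CCNE1 with CCNE2, CCNT1 with CCNT2 and CCNB1 with CDK1, and the log2 ratio of CCNA2 to CCNA1 is uncertain because CCNA1 had 1 to 4 reads.

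The remaining cyclins include the member with the highest mean. CCNI, an atypical cyclin, had 454, 447 and 437 TPM, or rank 270 among all genes by its mean. Its range overlapped that of CDKN2A, which was above it in replicate 3. CCNG1, an atypical cyclin as well, had 110 TPM ± 4.01 and its paralog CCNG2 22.3 TPM ± 3.06. CCNQ, the partner of CDK10, had 25.7 TPM ± 2.76. CCNY, the membrane-bound partner of CDK14, had 18.8 TPM ± 1.25. CCNO, known from cells with many cilia, had 7.47 TPM ± 0.571, CCNJ 6.62 TPM ± 0.514 and CCNF, an F-box protein of a ubiquitin ligase, 4.12 TPM ± 0.361. CCNI2 had 0.0833 TPM ± 0.0451.

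Of the remaining kinases, CDK16 was highest with 52.1, 52.1 and 50.6 TPM. CDK5, the kinase best known from neurons, had 38.7 TPM ± 4.5. Its dedicated activators were low: CDK5R1 had 1.85 TPM ± 0.486 and CDK5R2 0.497 TPM ± 0.0839. CDK18 had 23.8 TPM ± 2.21 and CDK17 10.9 TPM ± 1.79. CDK14 and CDK20 had 4.15 TPM ± 0.702 and 3.08 TPM ± 0.455, with overlapping ranges. CDK15 had 0.0667 TPM ± 0.0153, from 2 to 3.09 reads. Over the classes, 46 pairs of members next to each other in level were compared, and 9 overlapped: CCNE2 with CCNE1, CCNC with CCNK, CCNT1 with CCNT2, CCNQ with CCNG2, CCNG2 with CCNY, CCNO with CCNJ, CDK13 with CDK8, CDK11A with CDK12 and CDK14 with CDK20. With 3 libraries an exact sign-flip permutation test of a ratio cannot give a two-sided p below 0.25, so none was used to rank members.

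By class, the median level was 53.6 TPM ± 1.76 for transcriptional cyclins (7 genes), 52.0 TPM ± 2.72 for cell cycle CDKs (5) and 42.4 TPM ± 0.784 for INK4 inhibitors (4). It was 24.4 TPM ± 3.32 for CIP/KIP inhibitors (3), 19.9 TPM ± 1.37 for transcriptional CDKs (9), 18.8 TPM ± 1.25 for other cyclins (9), 13.7 TPM ± 0.972 for cell cycle cyclins (10) and 10.9 TPM ± 1.79 for other CDKs (7). The classes are wide, and the cell cycle cyclins alone spanned 0.113 to 130 TPM. CDKN3, a class of 1 gene, had 127 TPM ± 8.08. On the log2(TPM + 1) scale the medians of the classes with more than 1 gene lay from 0.60 ± 0.14 (other CDKs) to 2.80 ± 0.05 (transcriptional cyclins) above the median of all genes, and CDKN3 lay 4.03 ± 0.02 above it. Where undetected genes were left out of both the class and the background, other CDKs lay on the other side, at -0.16.

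The listed genes that act on these kinases or downstream of them were detected nearly throughout, against 66.5% of all genes by the same rule. All 9 genes of CDK subunits and phosphorylation were detected, with a median of 46.5 TPM ± 2.17, from CDC25A, an activating phosphatase (5.67 TPM ± 0.489), to CKS1B, a CDK-binding subunit (542 TPM ± 21.4). Every gene of the RB and E2F list (13 of 13) was detected, at a median of 17.3 TPM ± 2.15, from E2F2 (2.02 TPM ± 0.432) to E2F4 (40.4 TPM ± 1.13). RB1, the substrate of CDK4 and CDK6, had 27.9, 25.3 and 24.95 TPM, its relatives RBL1 and RBL2 3.47 TPM ± 0.646 and 14.1 TPM ± 1.89, and E2F1 17.3 TPM ± 2.15. CDKN2A and RB1 messages were thus both present in every control library. The level says nothing of mutation or of the protein.

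DREAM and MuvB, complexes that repress cell cycle genes in resting cells and, with MYBL2 and FOXM1, activate them before mitosis, had 7 of 7 genes detected, at a median of 25.5 TPM ± 1.80, from LIN54 (16.3 TPM ± 1.89) to MYBL2 (111 TPM ± 2.00). FOXM1, which drives mitotic genes such as CCNB1, had 50.2 TPM ± 1.48. All 18 genes of ubiquitin ligases that degrade cyclins and inhibitors were detected, with a median of 27.7 TPM ± 0.511, from FBXW7, the receptor for cyclin E (3.02 TPM ± 0.346), to CDC20, the mitotic activator of the anaphase-promoting complex (242 TPM ± 11.9). All 12 partners of P-TEFb and the Mediator kinase were detected, with a median of 17.1 TPM ± 1.91, from MED12L (2.11 TPM ± 0.366) to MEPCE (78.4 TPM ± 3.99). Of all genes, 66.5% were detected by the same rule.

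Of 10 genes grouped as non-cyclin activators, adaptors or associated proteins of CDK5 and CDK2, 8 were detected. They ran from SPDYA, not detected (0.0433 TPM ± 0.0379), to CDK2AP2 (101 TPM ± 6.12). The group mixes roles, so this count is not one of activators. Of the CDK5 activators given above, CDK5R1 was detected and CDK5R2 was not. Of 13 related genes outside the name rule, 9 were detected, a share near the 66.5% of all genes, with CDKN2AIPNL highest at 46.9 TPM ± 3.55 and CDKL2 listed at 0 TPM in all 3 libraries.

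The spread between libraries was close to that of other genes for most members. The median coefficient of variation (CV) was 8.20% over the 50 detected members and 7.56% over all detected genes. Set against the 200 genes nearest in level, 29 of the 55 members had a CV above the median of those genes and 5 above their 90th percentile: CCNE1 (32.7%), CDK19 (27.9%), CDK6 (26.7%), CCNT1 (15.6%) and CDKN1A (13.6%). Both counts are near what a median and a 90th percentile give by definition for any 55 genes. CDK6 had 1383, 1079 and 922 estimated reads, so that counting error alone would give a CV of 2.98%. For CCNE1 counting error alone would give 13.8%. At the other end, CDK10 (0.132%), CCNH (0.722%) and CDK11B (1.65%) varied by less than their counting error of 5.13%, 2.18% and 2.49%, which can occur with 3 libraries. So did CDK16 (1.73% against 2.22%), CDKN1C (4.91% against 14.9%), CCNO (7.64% against 8.99%) and CDKN2D (9.86% against 11.7%).

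**Figure D3:**
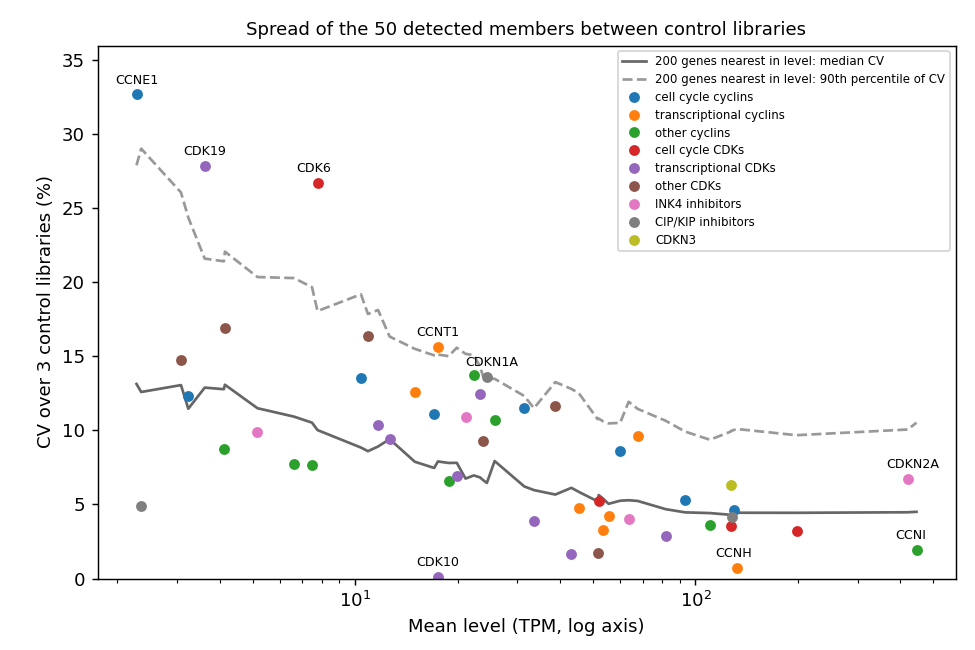
CV over the 3 control libraries (%) against mean level (TPM, log axis) for the 50 detected members, coloured by class. Lines give the median and the 90th percentile of the CV of the 200 genes nearest in level. CCNE1, CDK19 and CDK6 lie well above the upper line, and CDKN2A, at 6.71%, between both lines.

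Members that were high in replicate 1 tended to be those with long transcripts. Of the 50 detected members, 33 were highest in replicate 1, 7 in replicate 2 and 10 in replicate 3, against 57.7%, 17.3% and 25% of all detected genes. In all these counts a tie went to the earlier replicate. CDK10 (17.53 TPM) and CDKN1C (2.42 TPM) had equal levels in replicates 1 and 3 and were counted for replicate 1. Estimated reads per TPM grow with transcript length, and this quantity ran from 10.1 for CDKN3 to 147 for CDK6. Across the 50 detected members it had a Pearson correlation (on the log2 scale) of 0.61 and a Spearman correlation of 0.63 with the log2 ratio of replicate 1 to replicate 3. Across 11403 genes these were 0.39 and 0.44. Genes within a library share its depth and preparation and are not independent replicates, so these are descriptions. Of the 25 detected members with the most reads per TPM 21 were highest in replicate 1 and 1 in replicate 3, and of the 25 with the fewest 12 and 9. The 12 include the tied CDK10 and CDKN1C. The log2 ratio of replicate 1 to replicate 3 was 0.74 for CDK6, 0.66 for CDK19, 0.45 for CCNT1 and 0.33 for CCND1. It was -0.79 for CCNE1, -0.32 for CCND3, -0.32 for CDKN1A and -0.31 for CDK5. The part of transcript length in the spread of CDK6 and CDK19 was not tested.

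**Figure D4:**
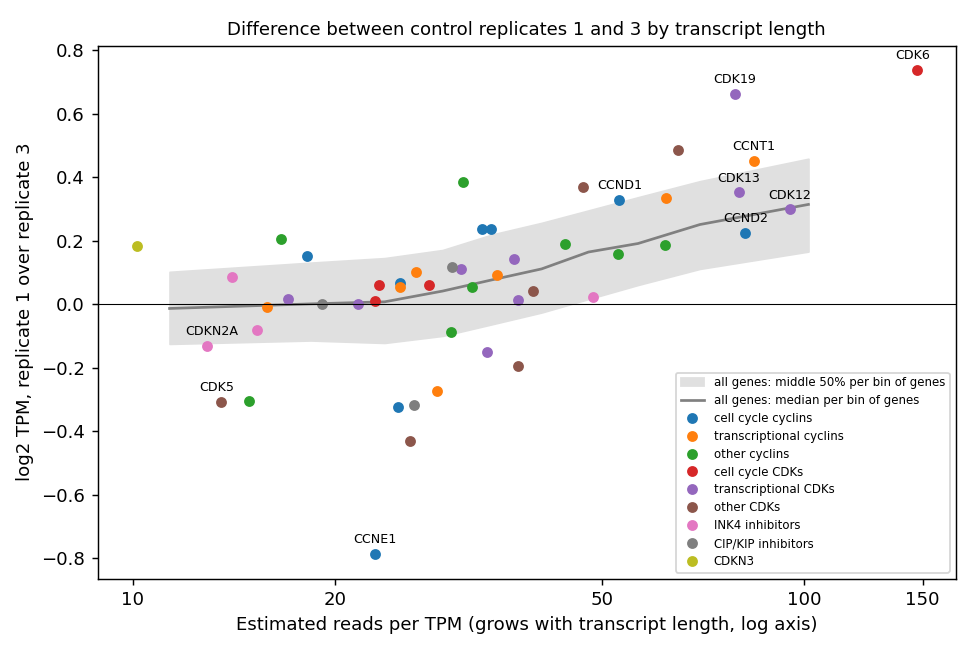
Log2 ratio of TPM in control replicate 1 over replicate 3 against estimated reads per TPM (log axis), for the 50 detected members by class. The grey line and band give the median and the middle 50% of all genes in 10 bins of equal size by reads per TPM. The line runs from -0.01 in the lowest bin to 0.32 in the highest, and CDK6 and CDK19 lie above the band while CCNE1 lies below it.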

How the data were processed

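Per the submitters' processing notes, HISAT2, StringTie, DESeq2 and the build GRCh38 were used. Roles, versions and the annotation were not given in the sources used here. Per the file headers, the table holds TPM, estimated counts of reads and FPKM per library, each made by the authors before deposit. TPM was the main unit, estimated counts served for depth, and FPKM as an alternative. The table also has 12 columns of values under names that match no sample. They were used in no step, and 0 knockout columns were found, so no differential test was run.

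Members were found by symbol and grouped by role. Members, classes and gene lists were chosen with earlier results of these data known. All members are named. Values in each library are given for the main cell cycle genes, CDK7, CDK9, CCNH, CCNT1, all inhibitors, and the highest member of other classes. Of other lists, the highest and lowest gene and RB1, RBL1, RBL2, E2F1, FOXM1 and MYBL2 are named; a further list is not reported here. The naming of single markers and of CDK5R1, CDK5R2 and MNAT1 was added after their values were seen. Detected means 1 TPM or more in all 3 libraries, and log2 values add 1. All 55 members matched RefSeq (GRCh38.p14), which gave positions and promoters. Simulated counts were used only to test the recovery of a set change in level and of the counting error. Class medians, ratios and matches of promoter elements were not tested in this way. Software was numpy 2.4.6, pandas 2.3.3, scipy 1.17.1, matplotlib 3.10.9 and Python 3.11.15.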

Additional observations from a re-analysis of the deposited data

How the results depend on the processing

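No paired analysis was possible because 0 columns matched a knockout sample. Of the 55 members, 50 were detected, against 52 with at least 10 estimated reads, 51 at 0.5 TPM and 42 at 5 TPM. Each library was also left out in turn, which by the rule can raise this count but not lower it, and 50 members were detected each time. With 3 libraries a mean over the rest cannot move by 1 SD, so this says nothing of the stability of medians and ratios. With FPKM, which are on another scale, class medians were 7.93 (cell cycle cyclins), 30.9 (transcriptional cyclins), 10.9 (other cyclins), 30.0 (cell cycle CDKs), 11.5 (transcriptional CDKs), 6.29 (other CDKs), 24.5 (INK4), 14.1 (CIP/KIP) and 73.5 (CDKN3). Over detected members only they were 24.2, 20.2, 89.4 and 17.4 TPM for cell cycle cyclins, other cyclins, cell cycle CDKs and other CDKs.

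Estimated reads carry no division by length, and with them the log2 differences from all genes were 0.35 (cell cycle cyclins), 2.33 (transcriptional cyclins), 0.33 (other cyclins), 2.24 (cell cycle CDKs), 1.76 (transcriptional CDKs), 1.71 (INK4), 1.07 (CIP/KIP) and 2.09 (CDKN3). With 0.1 added in place of 1 they were 2.96 (transcriptional cyclins), 1.45 (other cyclins), 2.91 (cell cycle CDKs), 2.41 (INK4) and 4.20 (CDKN3). With undetected genes left out of both the classes and the background they were 0.34, 1.51, 0.14, 2.11, 0.13, 0.98, 0.40 and 2.75 in the order of the first list, and other CDKs changed side, to -0.16.

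With estimated reads the log2 ratios were 2.69 (CCND1 to CCND3), -1.56 (CCND1 to CCND2), -1.07 (CCNE1 to CCNE2), 0.94 (CCNB1 to CCNB2), 2.03 (CDK4 to CDK6), 1.04 (CDK1 to CDK2), 1.27 (CDK8 to CDK19), -0.74 (CDK12 to CDK13), 0.66 (CCNT1 to CCNT2), 2.41 (CDKN2A to CDKN2B) and 2.01 (CDK16 to CDK17). All 16 paralog ratios kept their direction with reads. Within a library FPKM and TPM differ only by a common factor, so FPKM could not change a ratio beyond rounding. Depth limits CCNA1, CCNI2 and CDK15, which had at most 4.27 reads in a library.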
